A study of Homo sapiens with 45 samples.

Results

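Regions near the ends of human chromosomes were taken from 12 peak lists of CTCF, MBD2, MBD3 and TET1 in HEK293T cells, a line derived from human embryonic kidney. A region was a member if it lay on chromosomes 1 to 22 other than 19 and started below position 1000000 or ended within 1 Mb of the chromosome's end. No table of hg19 chromosome lengths was used here, so the end of a long arm (q) was taken as the furthest region end of that chromosome over the 12 lists, and the end of a short arm (p) as position 1. The rule used position alone and found 1067 regions, of 53743 in all lists and 48494 on these 21 chromosomes. The 42 windows covered 42 Mb, which was 1.49% of the 2820 Mb up to the furthest region ends.

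The cells had been treated for 72 h with 30 µM BPK25, a small molecule reported to lower the amount of NuRD proteins in cells, with 0.5 mM IAA, whose target the labels do not name, or with the solvent DMSO. All groups were labelled as the same HEK293T line, with no edited allele named. Each treatment had 3 libraries for each of the 4 antibodies and 3 of input DNA, 45 libraries in all. The authors called 1 list per treatment and antibody on the 3 libraries together, so each value is that of 1 pooled list, with no replicate error, and no difference between lists was tested.

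The stretch next to a telomere, the subtelomere, is rich in segments that recur at many chromosome ends and in genes close to the end. CTCF, which binds DNA through zinc fingers and marks insulators and the feet of chromatin loops, is known to bind subtelomeres, where it sits near promoters of the telomeric repeat transcript TERRA. The NuRD complex, which moves nucleosomes and removes histone acetylation, contains either MBD2, a reader of methylated CpG, or MBD3, and TET1 oxidises methylated cytosine. Reads from recurring segments can match several ends, and the sources used here do not say how such reads were treated.

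Taken over all 42 windows, short and long arms together, chromosome ends held more regions per Mb than the rest for all 4 antibodies in DMSO. Long arms, whose end was set by the furthest region, held most of these members. They had 207 (CTCF), 172 (MBD2), 130 (MBD3) and 89 (TET1), while short arms had 113, 97, 73 and 53. The pooled excess is therefore not shown for short arms alone. CTCF had 320 regions there, or 7.62 per Mb near ends against 5.60 per Mb elsewhere, a ratio of 1.36. MBD2 had 269 regions, with 6.40 per Mb near ends and 5.16 per Mb elsewhere. MBD3 had 203 regions, with 4.83 and 3.24 per Mb, and TET1 had 142 regions, with 3.38 and 2.3 per Mb near ends and elsewhere. Near-end regions were thus 2.02% of the CTCF list on these chromosomes (95% Wilson interval 1.81% to 2.2%), 1.84% of the MBD2 list (1.64% to 2.07%), 2.21% of the MBD3 list (1.93% to 2.53%) and 2.17% of the TET1 list (1.84% to 2.55%). Each interval lay above the 1.49% of sequence that the windows covered. These intervals cover counting error only, not differences between cultures.

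The lists under both treatments were far shorter, and a larger share of them lay near ends. Under BPK25, 21 of 244 CTCF regions on these chromosomes (8.61%, interval 5.70% to 12.8%), 32 of 410 MBD2 regions (7.80%, 5.58% to 10.8%), 26 of 261 MBD3 regions (9.96%, 6.89% to 14.2%) and 29 of 688 TET1 regions (4.22%, 2.95% to 5.99%) were near ends. All 4 intervals lay above those of the DMSO lists, whose shares were 2.02%, 1.84%, 2.21% and 2.17% in the same order. Among regions with a fold of 5 or more the TET1 order turned, with 19 of 408 near ends under BPK25 (4.66%) against 26 of 502 in DMSO (5.18%). Under IAA, 13 of 485 CTCF regions were near ends (2.68%, 1.57% to 4.53%), an interval that overlapped that of the 2.02% in DMSO CTCF. In the other IAA lists, 5 of 82 MBD2 regions (6.10%, 2.63% to 13.5%) and 4 of 48 MBD3 regions (8.33%, 3.29% to 19.6%) were near ends. For TET1 it was 3 of 52 (5.77%, 1.98% to 15.6%). The MBD2 and MBD3 intervals lay above those in DMSO, and that of TET1 overlapped, all on few regions. Without the outermost 100 kb of each end, the BPK25 TET1 share was 1.89% and the DMSO TET1 share 1.63%. The DMSO shares of CTCF, MBD2 and MBD3 were then 1.61%, 1.44% and 1.63%, with 1.34% of the sequence in the windows. No intervals are given for these shares, so they are not set apart from the 1.34%.

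The treated lists had a lower smallest background than the DMSO lists, and their depth itself is unknown from these lists. The smallest local background of a list, called its floor here, rises with sequencing depth, and was recovered from the authors' fold and −log10 p. In percent of the DMSO floor of the same antibody, it was 5.89 (CTCF), 49.5 (MBD2), 7.92 (MBD3) and 20.4 (TET1) under BPK25. The IAA floors stood at 19.3% to 28.7% of those in DMSO. The median near-end CTCF region had 8 fragments piled up at its summit under BPK25 and 35 in DMSO, and the median TET1 region had 22 and 41. What part the depth had in the shares was not tested.

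The outermost stretch was the densest. In DMSO, CTCF had 35.7 regions per Mb within 20 kb of an end, 8.73 from 20 to 50 kb, 11.0 from 50 to 100 kb, 6.38 from 500 kb to 1 Mb and 5.59 beyond 5 Mb. Because each long arm ends, by construction, at its own furthest region, the first value was set in part by the definition of the end. On short arms alone, where the end is position 1, CTCF had 5 regions within 20 kb, or 11.9 per Mb, against 5.20 per Mb beyond 5 Mb. MBD2, MBD3 and TET1 ran the same course, with 16.7, 14.3 and 9.52 regions per Mb within 20 kb of short-arm ends, against 4.84, 3.03 and 2.15 per Mb beyond 5 Mb. These rest on 7, 6 and 4 regions. Of all DMSO CTCF members, 64 lay within 100 kb of an end, and their median fold enrichment over local background was 5.09, against 4.30 for the 256 further in.

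**Figure D1:**
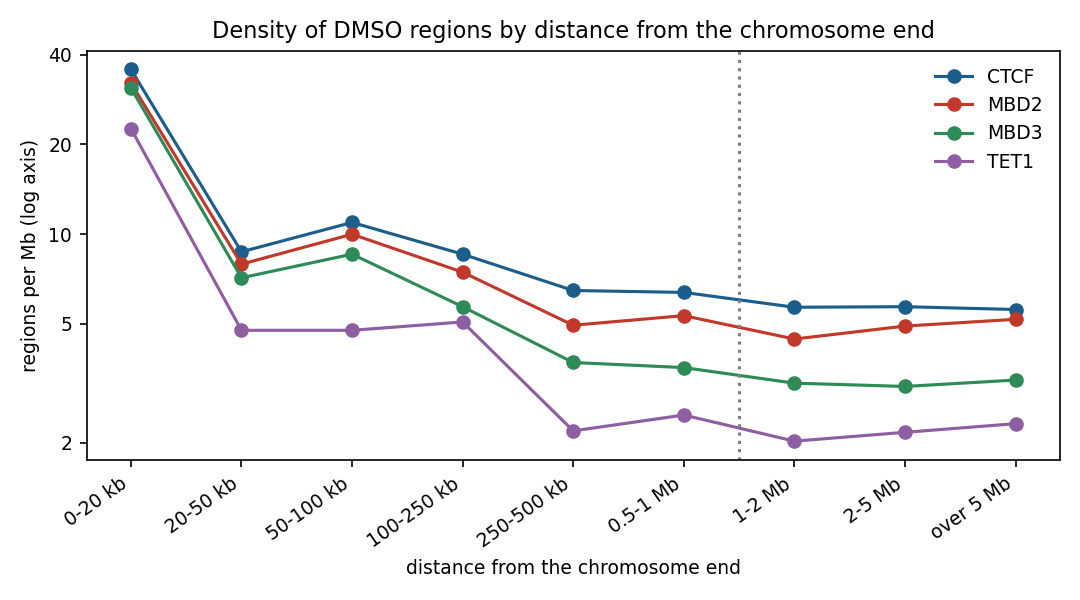
Regions per Mb (vertical, log axis) in the 4 DMSO lists against distance from the chromosome end (horizontal, in bins), with 1 line per antibody; the dotted line marks 1 Mb. All 4 lines are highest within 20 kb, where the CTCF list has 35.7 regions per Mb, and level off beyond 250 kb.

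The members just inside the window and the regions just outside had folds between 2.64 and 4.80. The DMSO TET1 region from 999017 to 999269 on chromosome 10 was the last member of any short arm and had a fold of 2.64, and the DMSO MBD2 region from 89282912 to 89283130 on chromosome 16 was the last of any long arm, with a fold of 3.63. The nearest regions outside were a DMSO MBD2 region from 140121963 to 140122224 on chromosome 9, with a fold of 4.80, and a DMSO CTCF region from 77006621 to 77006823 on chromosome 18, with a fold of 4.68.

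Members of different lists that overlapped were joined into 452 loci. Of these, 179 were in a single list, 99 in 2 lists, 75 in 3, 70 in 4 and 29 in 5 or more. The loci fell on 36 of the 42 ends. The end of 16q held 22 loci, and 8q and 10q held 21 each. No region of any list lay near the ends of 3p, 13p, 14p, 15p, 21p or 22p, of which all but 3p are short arms of acrocentric chromosomes, known to be mostly unassembled. The end of 1q held 1 locus. The lowest start over all short arms was 10180, on 5p.

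**Figure D2:**
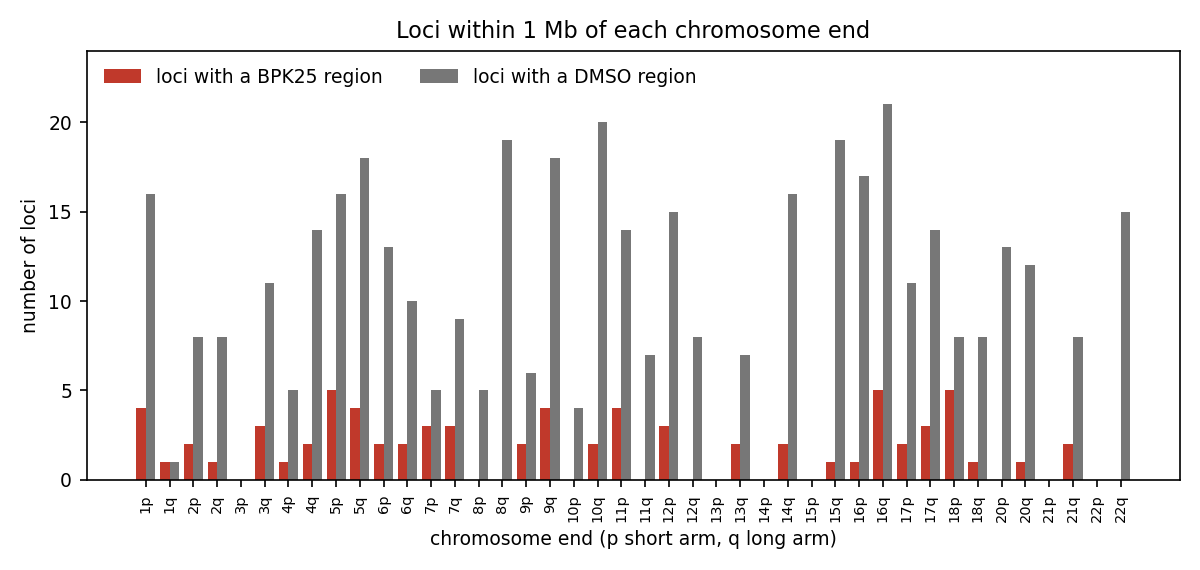
Number of loci (vertical) within 1 Mb of each of the 42 chromosome ends (horizontal), with loci that hold a BPK25 region left of loci that hold a DMSO region. DMSO loci lie at 36 ends and reach 21 at 16q, and BPK25 loci lie at 29 ends and reach 5.

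The highest peaks of the DMSO lists lay near chromosome ends. The 6 regions of highest fold among all 17440 DMSO CTCF regions were members, and of the 10 regions of highest fold of each other DMSO list, 5 (MBD2), 5 (MBD3) and 3 (TET1) were. Over whole lists the fold was not shifted in this way. The median fold was 4.35 in CTCF members and 4.32 elsewhere, 4.72 and 4.53 in the MBD2 list, 3.98 and 3.85 in the MBD3 list, and 3.62 and 3.37 in the TET1 list.

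On 15q, the locus from 102519398 to 102520062 was the furthest of its chromosome. The BPK25 TET1 list held it at a fold of 9.86 with 33 fragments, against 12.6 with 94 fragments for TET1 in DMSO, and no other treated list held it. In DMSO its fold was 25.0 for CTCF, the highest of that list, 16.7 for MBD2 and 15.4 for MBD3.

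On 9p, the locus from 11221 to 11669 had the highest MBD2, MBD3 and TET1 folds of the DMSO lists. They were 21.2, 17.5 and 17.0, and that of CTCF was 24.3. No treated list held this locus, although its DMSO pileup was 121 fragments (MBD2), 122 (MBD3) and 137 (TET1). The loci that stayed listed under BPK25 had median DMSO pileups of 55.5, 65 and 81.5 for these antibodies.

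On 1p, the locus from 11132 to 11755 lay at almost the same distance from its end. Its TET1 fold was 7.54 with 21 fragments under BPK25, against 9.48 with 79 fragments in DMSO, where CTCF had 19.4, MBD2 15.1 and MBD3 14.4. It and the 12p locus below were chosen after their values were seen.

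On 16p, the locus from 60817 to 61238 was in 7 lists. Under BPK25 its fold was 9.78 (CTCF), 8.86 (MBD2) and 13.6 (TET1), against 19.6, 19.4 and 12.3 in DMSO, where MBD3 had 15.0. On 12p, the locus from 94049 to 94509 had a fold of 4.46 for MBD2 and 5.29 for TET1 under BPK25, against 15.3 and 8.33 in DMSO. TET1 on 16p was thus higher in BPK25 than in DMSO on the fold scale, although its pileup was 36 fragments under BPK25 and 159 in DMSO. The fold divides by a local background that itself depends on depth, so folds of lists with different floors are given side by side and not as changes.

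A single locus was in all 12 lists. It lay on 7p from 23960 to 24465, and its fold under BPK25 was 10.7 (CTCF), 5.42 (MBD2), 7.99 (MBD3) and 8.38 (TET1). Under IAA it was 3.03, 3.19, 3.72 and 3.75, and in DMSO 3.46, 3.32, 2.94 and 3.71, in the same order. Its local background was 21.4 to 22.3 times the floor in the DMSO lists, 20.4 to 24.3 times under IAA and 10.6 to 10.9 times under BPK25. Its DMSO pileups of 334 fragments (CTCF), 274 (MBD2) and 454 (TET1) were the highest solved for near-end regions of the same DMSO list. The part of the raised background in this was not tested.

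Another 4 loci were in 8 lists. On 9p, the locus from 998543 to 999030, close to the inner edge of the window, had folds under BPK25 of 9.45 (CTCF), 11.0 (MBD2), 7.85 (MBD3) and 17.7 (TET1). In DMSO they were 15.4, 12.0, 13.9 and 8.78. Its background under BPK25 was 1.02 to 1.07 times the floor, so this locus stood on no raised background.

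On 7p, the locus from 302891 to 304067 had folds under BPK25 of 11.5, 5.05, 6.39 and 10.1 for CTCF, MBD2, MBD3 and TET1. In DMSO these were 13.4, 15.1, 9.59 and 8.12. Its pileups under BPK25 were 18, 23, 10 and 33 fragments, against 118, 120, 89 and 95 in DMSO, so all 4 proteins kept a listed region there at a lower pileup.

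The other 2 loci in 8 lists had lower folds in DMSO. On 6q, the locus from 170707540 to 170709355 had folds of 5.55 (CTCF), 4.96 (MBD2) and 3.91 (TET1) under BPK25 and 3.00 (MBD2) under IAA, against 2.31 to 3.19 in DMSO. On 9q, the locus from 141121892 to 141122739 had folds of 3.05 to 4.84 for the 4 antibodies under BPK25, against 2.16 to 2.96 in DMSO. Background stood at 2.86 to 7.13 times the floor at these loci.

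A second 9q locus, from 141121201 to 141121650, was in 7 lists. Its fold was 3.43 (MBD2) and 8.14 (TET1) under BPK25 and 6.78 (CTCF) under IAA, against 12.8 (CTCF), 16.1 (MBD2), 11.0 (MBD3) and 7.08 (TET1) in DMSO. On 18p, the locus from 96763 to 97517 had folds of 6.98 (MBD2), 8.73 (MBD3) and 4.63 (TET1) under BPK25, against 9.85, 6.99 and 5.99 in DMSO, where CTCF had 12.3. Its background was at the floor in every list, with 9 to 19 fragments under BPK25 and 39 to 65 in DMSO.

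The region nearest to position 1, on 5p from 10180 to 11698, was also in 7 lists. Its fold under BPK25 was 8.76 (CTCF), 4.34 (MBD2) and 7.28 (MBD3). In DMSO it was 4.86, 4.19 and 5.25 for these, and 6.44 for TET1. The last of the 5 loci in 7 lists, named after its values were seen, lay on 7q from 157940526 to 157941684. Its folds were 4.74 (CTCF), 2.08 (MBD2) and 5.5 (MBD3) under BPK25 and 3.10 (CTCF) under IAA, against 1.77 (CTCF), 2.18 (MBD3) and 1.64 (TET1) in DMSO. On 1q, 2q, 10q and 17q, the furthest locus held all 4 DMSO antibodies, with folds between 2.60 and 9.31. Of these 4 the 1q locus alone was also in a treated list, with a TET1 fold of 5.26 under BPK25 against 2.62 in DMSO. Every long arm has a furthest locus by construction, so these 4 were taken among ties. The furthest loci of 4q, 8q, 11q, 15q, 20q and 21q also held all 4 DMSO antibodies, and those of the remaining long arms held fewer. On 3q, 9q, 15q and 20q the furthest locus was in a BPK25 list too.

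**Figure D3:**
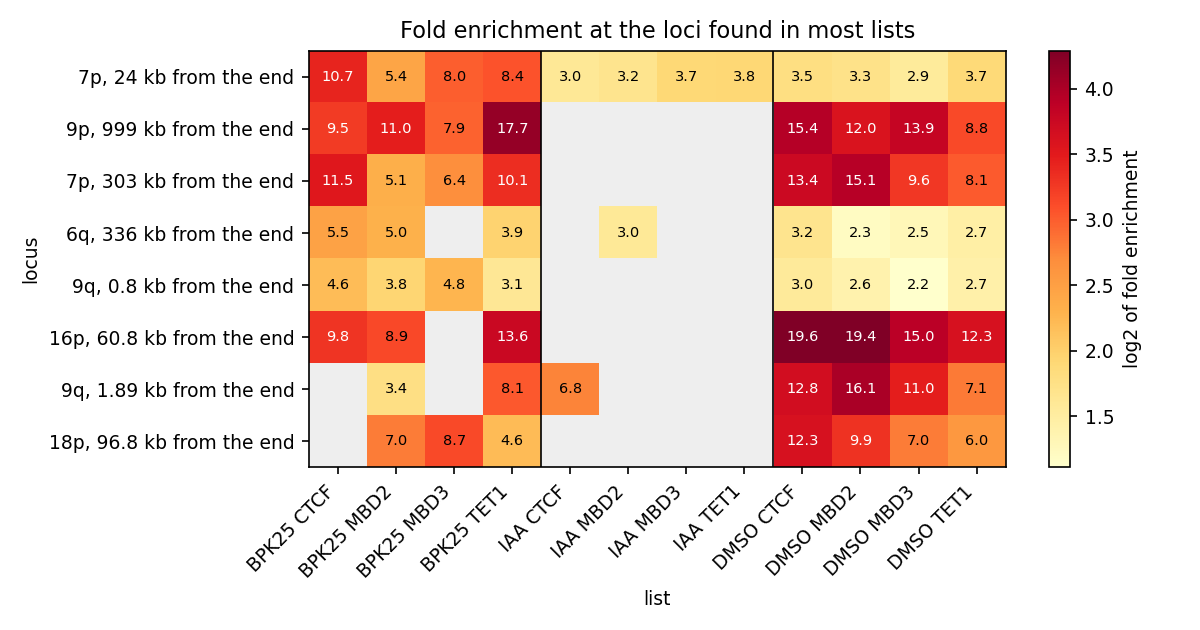
Fold enrichment (number in each cell, with colour on a log2 scale) at the 8 near-end loci found in most lists, with ties at 7 lists taken by highest fold (rows, named by arm and distance from the end) in the 12 lists (columns: BPK25, then IAA, then DMSO); grey cells are not listed. The top row is the 7p locus found in all 12 lists, and the IAA columns are nearly empty for the others.

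The next question was which DMSO regions near ends were also listed under a treatment for the same antibody. Under BPK25, 13 of 320 CTCF members were (4.06%, interval 2.39% to 6.83%), against 95 of 15556 regions on the rest of these chromosomes (0.611%) and 1.27% of the whole DMSO CTCF list. For MBD2 it was 17 of 269 (6.32%, 3.98% to 9.89%), against 1.07% elsewhere and 1.45% of the whole list. For MBD3 it was 10 of 203 (4.93%, 2.70% to 8.83%), against 0.934% elsewhere and 1.71% of the whole list.

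TET1 had the highest share. Under BPK25, 25 of 142 TET1 members stayed listed (17.6%, 12.2% to 24.7%), against 6.34% elsewhere and 6.91% of the whole DMSO TET1 list. For all 4 antibodies the interval near ends lay above that for the rest of the chromosomes, and the ratio of the shares was 6.65 (CTCF), 5.89 (MBD2), 5.27 (MBD3) and 2.78 (TET1). Without the outermost 100 kb the ratio was 2.85 (MBD3) and 1.47 (TET1), and the intervals of these 2 antibodies overlapped those elsewhere. These loci were spread over many ends: the 13 CTCF loci lay at 11 ends, and the 24 TET1 loci at 19. Reads from recurring segments can match several ends, so loci at different ends need not be independent, and the intervals take no account of this.

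Under IAA the shares over the whole windows could not be set apart from the rest at these counts. They were 4 of 320 CTCF regions (1.25%, against 0.726% elsewhere and 0.952% of the whole list), 2 of 269 MBD2 regions (0.743%, against 0.425% and 0.613%), 1 of 203 MBD3 regions (0.493%, against 0.489% and 0.740%) and 2 of 142 TET1 regions (1.41%, against 0.671% and 1.07%). All 4 intervals near ends overlapped those elsewhere. Within 100 kb of an end, 3 of 64 CTCF regions (4.69%, 1.61% to 12.9%) were listed under IAA. There it was 2 of 35 TET1 regions (5.71%, 1.58% to 18.6%), 1 of 58 MBD2 regions (1.72%) and 1 of 53 MBD3 regions (1.89%). The CTCF and TET1 intervals within 100 kb lay above those elsewhere, on 3 and 2 regions, and the other 2 overlapped. Whether the 2 treatments differ near ends was not tested.

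**Figure D4:**
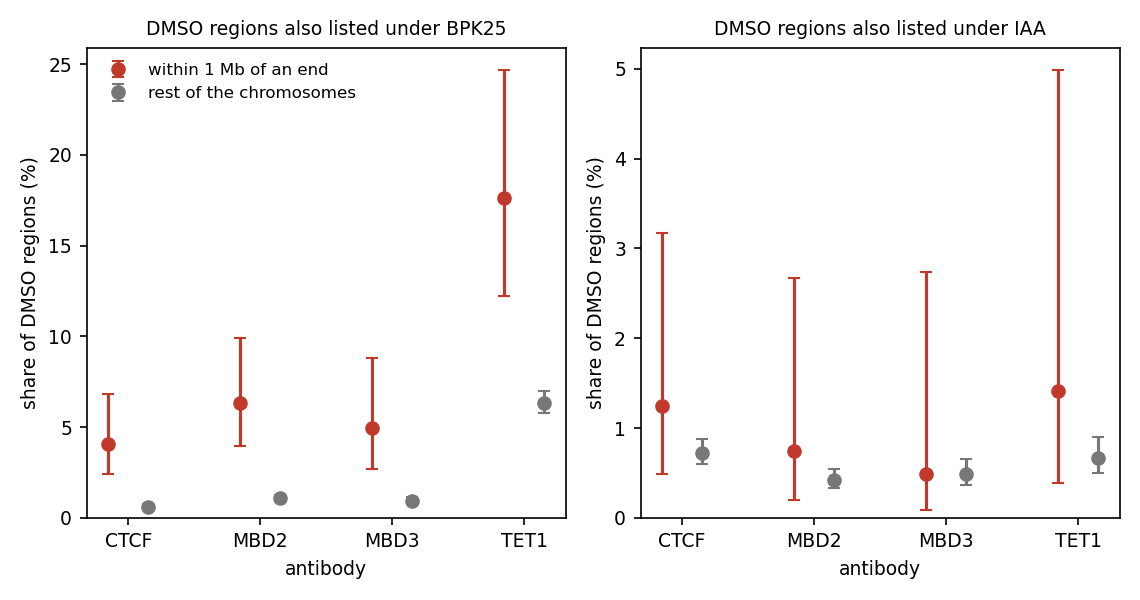
Share of DMSO regions (vertical, %) that are also in the BPK25 list (left panel) or IAA list (right panel, a smaller scale) of the same antibody, for regions within 1 Mb of an end (red) and the rest of the 21 chromosomes (grey); bars are 95% Wilson intervals. Under BPK25 every red point stands above its grey point with no overlap of the bars, and under IAA the bars overlap.

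The shares were largest in the outermost 100 kb. Under BPK25, 7 of 64 CTCF regions there stayed listed (10.9%), against 6 of 256 further in (2.34%). For MBD2 it was 11 of 58 (19%) and 6 of 211 (2.84%), for MBD3 6 of 53 (11.3%) and 4 of 150 (2.67%), and for TET1 15 of 35 (42.9%) and 10 of 107 (9.35%). The intervals of the outer and inner shares were apart for CTCF, MBD2 and TET1. For MBD3 they overlapped (5.29% to 22.6% and 1.04% to 6.66%). From 1 to 2 Mb, 4 of 239 CTCF regions stayed listed (1.67%), from 2 to 5 Mb 2 of 720 (0.278%), and beyond 5 Mb 0.610%. For TET1 these shares were 3.53%, 3.30% and 6.52% at the same distances, and 2 of 52 TET1 regions from 500 kb to 1 Mb stayed listed (3.85%). These lower TET1 shares rest on 2, 3 and 9 regions, and their intervals overlapped the 5.92% to 7.17% beyond 5 Mb.

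**Figure D5:**
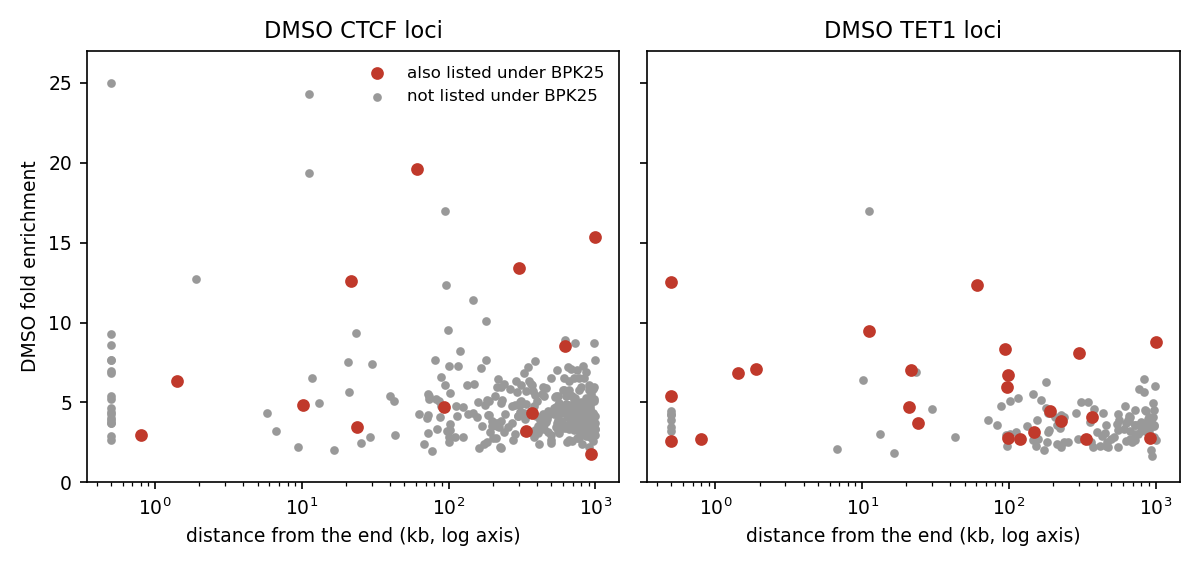
DMSO fold enrichment (vertical) against distance from the end (horizontal, kb, log axis, with distances under 0.5 kb drawn at 0.5) of near-end loci with a DMSO CTCF region (left) or DMSO TET1 region (right); red points are also in the BPK25 list of that antibody. The highest red CTCF point has a fold of 19.6, below the 2 highest loci, and 7 of 64 CTCF regions within 100 kb are red against 6 of 256 further in.

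Raised local background moved with being listed, and under BPK25 the near-end share was higher with and without it. A background over 3 times the floor was called raised, and 9.18% of near-end and 9.65% of other DMSO CTCF regions had one. The shares were 9.43% and 9.60% in the MBD2 list, 11.3% and 11.3% in the MBD3 list, and 13.4% and 11.0% in the TET1 list. Among regions without it, 2.79% of near-end CTCF regions stayed listed under BPK25 against 0.257% elsewhere, 3.33% of MBD2 regions against 0.672%, 3.33% of MBD3 regions against 0.201% and 14.6% of TET1 regions against 5.05%. Among regions with it, 4 of 29 near-end CTCF regions stayed listed (13.8%, against 2.94% elsewhere), 6 of 25 MBD2 regions (24%, against 4.72%), 4 of 23 MBD3 regions (17.4%, against 5.25%) and 7 of 19 TET1 regions (36.8%, against 16.1%). Where the −log10 p was too high to solve the background, 1 of 4 near-end CTCF regions stayed listed (25%) against 15 of 28 elsewhere (53.6%), and 3 of 4 MBD2 regions against 2 of 12. Under IAA, 1 of 287 CTCF members without raised background stayed listed (0.348%), against 38 of 14030 elsewhere (0.271%). For MBD2, MBD3 and TET1 it was 0 of 240, 0 of 180 and 0 of 123. Elsewhere it was 0 of 12953, 0 of 7956 and 0 of 5684, so these counts cannot show whether the ends stand out. With raised background, 3 of 29 CTCF members (10.3%, against 3.60% elsewhere) and 2 of 25 MBD2 members (8%, against 3.63%) stayed listed under IAA. For MBD3 it was 1 of 23 (4.35%, against 2.87%) and for TET1 2 of 19 (10.5%, against 4.14%). All 4 of these intervals overlapped those elsewhere.

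The shares were also set side by side at like DMSO fold, with each DMSO list on these chromosomes cut into 4 equal parts by fold. In the part of the CTCF list with the highest fold, 6 of 96 near-end regions stayed listed under BPK25 (6.25%), against 0.826% elsewhere, and in the lowest part 4 of 83 (4.82%), against 1.24%. For TET1 the highest part gave 15 of 53 (28.3%) against 11.2%, and the lowest 7 of 39 (17.9%) against 4.0%. In the middle parts, in order of rising fold, near ends and elsewhere, the TET1 shares were close, at 1 of 19 (5.26%) against 4.51% and 2 of 31 (6.45%) against 5.73%. The middle CTCF parts gave 0 of 74 against 0.180% and 3 of 67 (4.48%) against 0.205%.

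For MBD2 the lowest part gave 8 of 69 (11.6%) against 1.95% elsewhere and the highest 6 of 90 (6.67%) against 1.71%, with 1 of 56 against 0.222% and 2 of 54 against 0.417% in the middle parts. For MBD3 they gave 4 of 45 (8.89%) against 2.31% and 6 of 62 (9.68%) against 1.25%, with 0 of 49 against 0.0889% and 0 of 47 against 0.0888% in the middle. The intervals near ends lay above those elsewhere in the lowest and highest parts for all 4 antibodies, and overlapped them in the middle parts, other than the upper middle part for CTCF and MBD2.

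Seen from the treated lists, 13 of 21 near-end BPK25 CTCF regions overlapped a DMSO CTCF region (61.9%, against 42.6% elsewhere and 59.5% of the whole list). For MBD2 it was 17 of 32 (53.1%, against 41.3% and 46.5%), for MBD3 11 of 26 (42.3%, against 36.2% and 46.5%), and for TET1 24 of 29 (82.8%, against 61.8% and 64.2%). The CTCF, MBD2 and MBD3 intervals near ends overlapped those elsewhere, and that of TET1, from 65.5% to 92.4%, lay just above the 58.0% to 65.4% elsewhere.

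At the loci that stayed listed, pileups were lower under BPK25. The median was 10 fragments under BPK25 and 71 in DMSO at the 13 CTCF loci, 30 and 55.5 at the 17 MBD2 loci, 10.5 and 65 at the 10 MBD3 loci, and 22.5 and 81.5 at the 24 TET1 loci. The median DMSO fold of these loci was 4.86 (CTCF), 4.19 (MBD2), 5.41 (MBD3) and 5.07 (TET1). At the loci that were not listed under BPK25 it was 4.34, 4.73, 3.96 and 3.59. Under BPK25 the median fold of the loci that stayed listed was 6.30 (CTCF), 4.34 (MBD2), 6.83 (MBD3) and 5.89 (TET1). It was above the DMSO fold at 7 of 13, 9 of 17, 7 of 10 and 18 of 24 loci. The median pileup was thus lower and the median fold higher under BPK25, where floors were lower. Locus by locus, the CTCF and MBD2 folds went both ways. These loci were taken because the BPK25 list held them, and neither value is given as a change.

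The 4 proteins shared near-end regions about as often as regions elsewhere. Of the 320 DMSO CTCF members, 204 overlapped an MBD2 region (63.8%, against 67.4% elsewhere and 67.4% of the whole list), 166 an MBD3 region (51.9%, against 45.9% and 46.4%) and 123 a TET1 region (38.4%, against 33.7% and 33.9%). The MBD2 and TET1 intervals overlapped those elsewhere, and the MBD3 interval of 46.4% to 57.3% overlapped narrowly the 45.2% to 46.7% elsewhere. Of the DMSO MBD2 members, 54.6% overlapped an MBD3 region (48.7% to 60.5%), above the 47.5% elsewhere (46.7% to 48.3%). With TET1 it was 41.6% (35.9% to 47.6%) against 35.3% (34.6% to 36.1%), a narrow overlap. The CTCF shares were higher close to the end. Within 100 kb, 73.4% of the 64 CTCF members had MBD2, 73.4% had MBD3 and 53.1% had TET1, against 59.7%, 44.8% and 31.3% of the 134 members from 500 kb to 1 Mb. The intervals at these distances were apart for MBD3 (61.5% to 82.7% and 36.6% to 53.2%) and TET1 (41.1% to 64.8% and 24.1% to 39.6%) and overlapped for MBD2.

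The folds of CTCF members were set beside their number of partners. The 76 members with no partner had a median fold of 3.61, the 82 with 1 partner 4.18, the 75 with 2 partners 4.37 and the 87 with all 3 partners 5.96. Of these, 0, 1, 2 and 10 stayed listed under BPK25. The same order held on the rest of the chromosomes, with median folds of 3.63, 4.13, 4.57 and 5.30 and 4 of 3658, 10 of 4452, 9 of 3918 and 72 of 3528 regions listed. Counted as loci, 26 of the 87 near-end loci with all 4 DMSO antibodies were in at least 1 BPK25 list (29.9%, 21.3% to 40.2%), against 7 of 156 loci with 1 DMSO antibody (4.49%, 2.19% to 8.97%). The part of fold in these counts was not tested.

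Where a pair of DMSO antibodies shared a near-end region, their summits lay 12 to 17 bp apart at the median, and 11 to 14 bp apart elsewhere. The folds of the pair ran together, with Spearman's rho between 0.72 and 0.80 over the 99 to 205 shared near-end regions of a pair and between 0.68 and 0.72 elsewhere. These regions share input libraries and mappability, so rho is a description only.

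A few near-end regions appeared in a treated list with no DMSO region of any antibody. Under BPK25 they were 8 of 21 CTCF regions (38.1%, against 55.2% elsewhere), 7 of 32 MBD2 regions (21.9%, against 51.9%), 12 of 26 MBD3 regions (46.2%, against 58.7%) and 0 of 29 TET1 regions (against 6.22%). The 0 of 29 allows a share of up to 11.7% by its interval. The MBD2 interval near ends, 11.0% to 38.8%, lay below that elsewhere, 46.8% to 56.8%, and the other intervals overlapped.

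The strongest such CTCF region under BPK25 lay on 13q from 114196280 to 114196623, with a fold of 11.1 from 13 fragments. On 11p, a BPK25 MBD3 region from 964910 to 965279 had a fold of 12.2 from 17 fragments. On 4q, a BPK25 MBD2 region from 190606355 to 190606614 had a fold of 5.29 from 18 fragments. Each was in that list alone, with background between 1.02 and 1.39 times the floor, so these folds rest on few fragments over a shallow background. On 5p, the BPK25 MBD3 region from 209248 to 209752 had a fold of 10.7, with BPK25 MBD2 at 3.5 and DMSO CTCF at 2.80 in the same locus.

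On 14q, the locus from 106444634 to 106444934 was in a list of each treatment and in no DMSO list. Its fold was 7.68 for MBD2 under BPK25, from 21 fragments, and 10.8 for CTCF under IAA, from 20 fragments, both at the floor of their list. On 12q, an IAA CTCF region from 133402391 to 133402666 had a fold of 6.16 from 12 fragments. Those 2 were the highest IAA CTCF members with no DMSO region.

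The remaining IAA regions with no DMSO region that met the naming rule lay on 1p, from 564709 to 565228 and from 566116 to 566682. The second was in all 4 IAA lists, with folds of 1.35 (CTCF), 2.04 (MBD2), 1.91 (MBD3) and 1.81 (TET1), and pileups of 233 to 755 fragments. The background there was 184 to 354 times the floor. This stretch of 1p is known to hold a nuclear copy of mitochondrial DNA, and regions on the mitochondrial chromosome itself were in the IAA lists only, 4 for CTCF and 15 each for MBD2, MBD3 and TET1. The part of mitochondrial reads in the 1p regions was not tested.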

How the data were processed

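ChIP-seq libraries of HEK293T cells were grouped by the treatment and antibody in their labels. The submitters' processing notes name MACS2 2.1.2, SAMtools 1.9 and Bowtie2 2.3.4, and hg19 as the build. The authors deposited 12 peak lists, each called on 3 libraries together, with a linear fold (ratio of pileup to local background), −log10 values of p and q per peak, and a display score, which was not used. All folds are the authors' values and describe regions within a list. Depth per library is unknown from these lists.

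Sub-peaks of identical boundaries were merged, keeping the one of largest −log10 p. Regions were shared at an overlap of 1 bp or more. Pileup and background were solved from fold and −log10 p as whole pileups within 0.02%, for 1059 of 1067 members. The other 8 had a −log10 p above 150. Shares carry 95% Wilson intervals. Named regions are, with a −log10 q of 5 or more, the 2 of highest fold per list and the 2 of highest fold per treated list without a DMSO region. Also named are the 8 loci in most lists (ties by highest fold), the member nearest an end in each DMSO list, those at the edge of the window, and the 3 ends with most loci or any with none. The members, lists and rules were chosen with earlier results of these data known. No gene names or sequences are given, since no hg19 genome was used here. The scripts were tested on simulated data. Python 3.11.15, numpy 2.4.6, pandas 2.3.3, SciPy 1.17.1 and matplotlib 3.10.9 were used.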

Additional observations from a re-analysis of the deposited data

How the results depend on the processing

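Of 171 values under alternatives, 123 stayed within the 95% interval of the value reported and 48 moved beyond it, and the cause of the moves was not tested except where the alternative itself changes the window or the threshold. Under BPK25, the share of DMSO regions that stayed listed was higher near ends than elsewhere in all 10 settings for each antibody, by 3.84 to 8.61 times (CTCF), 2.65 to 9.50 (MBD2), 2.85 to 6.61 (MBD3) and 1.47 to 4.04 (TET1). The lowest TET1 and MBD3 ratios, both without the outermost 100 kb, had intervals that overlapped those elsewhere.

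Without the outermost 100 kb, the share that stayed listed under BPK25 was 2.34% (CTCF), 2.84% (MBD2), 2.67% (MBD3) and 9.35% (TET1), and under IAA 0.391% (CTCF), 0% (MBD3) and 0% (TET1). The share of each list near ends was then 4.39% for BPK25 MBD2, 1.89% for BPK25 TET1, and 1.61%, 1.44%, 1.63% and 1.63% for CTCF, MBD2, MBD3 and TET1 in DMSO, where the windows covered 1.34% of the sequence. A window of 500 kb, or 0.745% of the sequence, held 5.33% of BPK25 CTCF, 6.51% of BPK25 MBD3 and 1.17%, 1.07%, 1.39% and 1.37% of the DMSO lists, and 10.2% of MBD2 and 25.6% of TET1 members stayed listed under BPK25. A window of 2 Mb, or 2.98%, held 3.52%, 3.12%, 3.66% and 3.47% of the DMSO lists.

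With a −log10 q of 5 or more, 1.92% of CTCF members stayed listed under BPK25. With a fold of 5 or more, 4.95% of BPK25 MBD2, 15.3% of BPK25 MBD3 and 2.33%, 2.23%, 3.19% and 5.18% of the DMSO lists lay near ends, and BPK25 TET1, at 4.66%, was then below DMSO TET1. The share that stayed listed under BPK25 was then 3.31% (MBD2), 9.43% (MBD3) and 38.5% (TET1), and 0% for MBD2, MBD3 and TET1 under IAA, and 37.9% and 20.7% of CTCF members had MBD3 and TET1. Background over 2 times the floor was found at 32.9%, 35.1%, 38.4% and 38.7% of DMSO members, and over 5 times at 2.85%, 3.02%, 4.93% and 7.04%. An overlap of 50%, summits within 150 bp, sub-peaks of largest fold, leaving out the chromosome with most members and, chosen after seeing the data, leaving out regions within 2 kb of the furthest region end moved none of the values they were run on. True chromosome lengths were not used here, so that alternative was not run.

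No paired analysis was possible because each list pools replicates 1 to 3, which also prevents leaving out a replicate. Shares under IAA rest on 1 to 4 regions, and BPK25 CTCF and MBD3 regions on a median of 8 and 9 fragments.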

Other observations

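Outside the windows, a stretch of chromosome 2 known to be the place where a pair of ancestral chromosomes joined end to end was examined after the values near ends were seen. The region around 114361642 to 114361946 was in all 4 DMSO lists and in no treated list, with a fold of 9.22 (CTCF), 8.21 (MBD2), 5.53 (MBD3) and 4.92 (TET1). Its pileups were 61, 48, 39 and 41 fragments on a background of 1.32 to 1.33 times the floor. A neighbour from 114359476 to 114359731 had a fold of 4.60 for CTCF, and MBD2 and MBD3 were listed there too, at 4.92 and 3.78.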
